A study of Homo sapiens with 18 samples.

Results

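RNA of LNCaP cells with NFYA knocked down was set against RNA of LNCaP cells with KLF5 knocked down, both after treatment with the synthetic androgen R1881. The comparison took the libraries labelled siNFYA with R1881 (3) and siKLF5 with R1881 (3), which are 6 of the 17 libraries analysed here and of 18 samples in the labels. LNCaP is an androgen-responsive human prostate cancer line, and the samples were measured by RNA sequencing. The cells had received a pool of siRNAs against NFYA, a pool against KLF5 or a pool of non-targeting control siRNAs (siControl). All were kept in medium with 5% charcoal-stripped serum, which is poor in steroids, for 48 h and then given 10 nM R1881 or vehicle (96% ethanol) for 24 h. The other groups used beside the comparison were siNFYA with vehicle (n = 3), siKLF5 with vehicle (n = 2, with replicate 1 not analysed here) and siControl with R1881 and with vehicle (n = 3 each). Knockdown by siRNA lowers a transcript and does not remove it, each factor was targeted by 1 pool in 1 cell line, and the labels do not say whether replicates came from separate cultures, so p-values measure the spread between these libraries, which may be technical.

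NFYA is the subunit of the trimeric factor NF-Y that contacts DNA, and NF-Y binds the CCAAT box that lies shortly upstream of many genes, including genes of cell division and of protein folding in the endoplasmic reticulum. KLF5 belongs to the KLF and SP family of zinc-finger proteins, whose members bind GC-rich and CACCC boxes, and it is known for roles in epithelial growth and in the prostate. A direct comparison of the siNFYA and siKLF5 cells shows where the transcriptomes differ, and the values of siControl cells are given beside them.

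The 6 libraries held 4582804 to 6047263 estimated counts each. Reads assigned to transcripts with a retained intron took 2.66%, 2.56% and 2.65% of counts in siNFYA cells, against 2.43%, 2.31% and 2.28% in siKLF5 cells. The groups did not overlap in this share, and its part in the results below was not tested. Mitochondrially encoded genes took 2.54% to 2.62% of counts in siNFYA cells and 2.20% to 2.82% in siKLF5 cells. The siControl libraries with R1881 stood apart from both, with 1.33% to 1.44% for mitochondrially encoded genes and 1.96% to 1.98% for retained introns. All 13 mitochondrially encoded mRNAs were called higher against siControl R1881 in both knockdowns. Of all genes 2.43% were called higher there for siNFYA and 0.673% for siKLF5. The part of these shares in any comparison with siControl was not tested. The cells carried the luminal markers known of LNCaP, and the 15 luminal markers summed to 19819 to 20340 CPM (counts per 1000000, scaled for composition) in siNFYA cells and 19048 to 19242 CPM in siKLF5 cells. The 8 basal markers summed to 55.1 to 61.7 CPM in siNFYA cells and 58.3 to 66.4 CPM in siKLF5 cells, mostly from ITGA6 (43.7 CPM on average), and the neuroendocrine list to 13.3 to 15.1 CPM in siNFYA cells and 15.9 to 18.0 CPM in siKLF5 cells, mostly from ENO2 (12.8 CPM). The stromal list summed to 169 to 183 CPM in siNFYA cells and 214 to 267 CPM in siKLF5 cells, mostly from FN1, and the blood and endothelial list to 2.70 to 3.85 CPM in siNFYA cells and 3.00 to 5.14 CPM in siKLF5 cells. KRT5 and TP63, which define basal cells, were at 0 in the 6 libraries, as were the neuroendocrine markers CHGA, INSM1 and SCG2 and the blood and endothelial markers CD3E, HBB and CDH5.

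The targeted genes separated the groups. NFYA (chr6:41072945-41099976, GRCh38, GENCODE v29) had 58.7, 56.9 and 53.6 CPM in siNFYA cells, against 79.0, 88.8 and 87.7 CPM in siKLF5 cells, and siControl cells had 84.5, 89.7 and 86.6 CPM. Every siNFYA library lay below every siKLF5 library, and siKLF5 and siControl libraries overlapped. NFYA was 33.8% lower in siNFYA cells (log2 change -0.59, SE 0.064, adjusted p = 1.78e-06, in the quasi-likelihood test of edgeR with Benjamini-Hochberg adjustment over all genes, which stands behind each adjusted p given here). KLF5 (chr13:73054976-73077542) had 22.2, 27.9 and 29.8 CPM in siNFYA cells, against 11.8, 11.4 and 15.2 CPM in siKLF5 cells, and siControl cells had 27.9, 25.3 and 31.9 CPM. The siKLF5 libraries were the lowest, and siNFYA and siControl libraries overlapped (log2 change 1.07, SE 0.17, adjusted p = 0.00031). On TPM values KLF5 kept its direction and was not called, with log2 changes of 0.61 and 0.67 for the pseudocounts of 1 and 0.1. The partner subunits of NF-Y did not pass the test. NFYB averaged 28.8 ± 2.02 CPM in siNFYA cells and 29.3 ± 1.67 CPM in siKLF5 cells (SD, n = 3 each), with adjusted p = 0.937. NFYC averaged 57.3 ± 2.98 CPM in siNFYA cells and 50.8 ± 4.62 CPM in siKLF5 cells (SD, n = 3 each), with adjusted p = 0.288. No other member of the 18 tested KLF and SP genes passed.

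**Figure D1:**
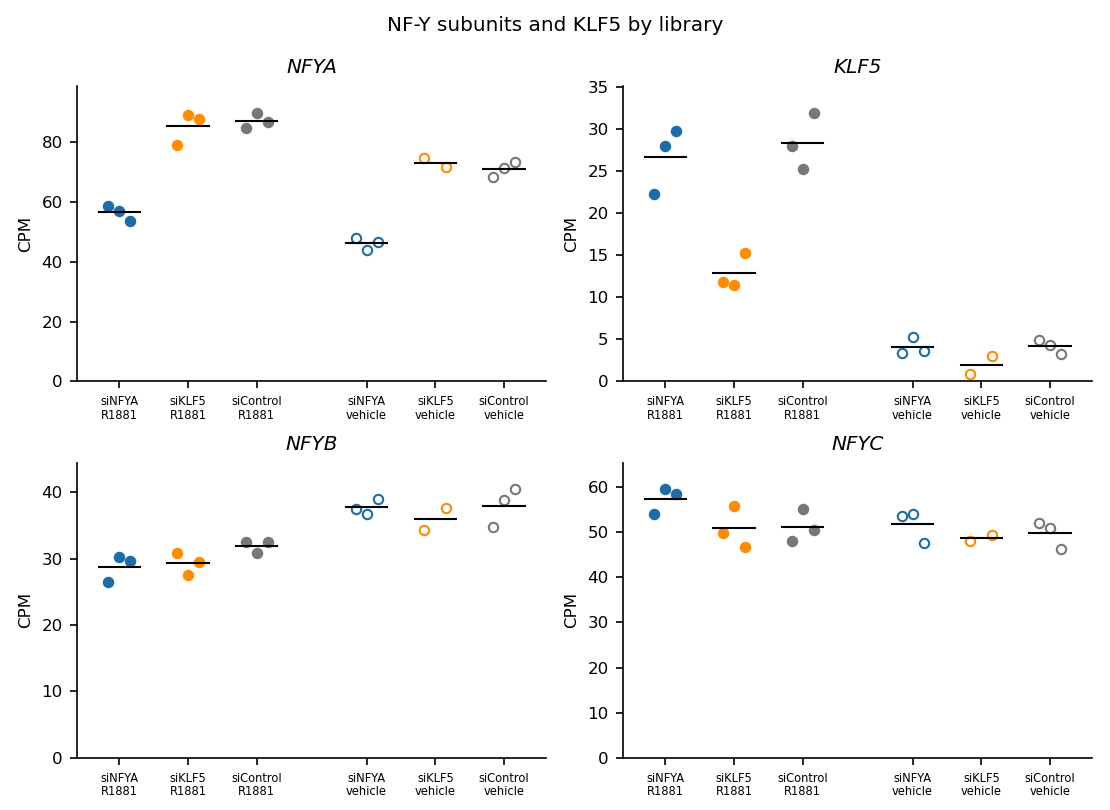
CPM of NFYA, KLF5, NFYB and NFYC in each library, with siNFYA, siKLF5 and siControl cells from left to right under R1881 (filled points) and under vehicle (open points), and black bars at group means. Each targeted gene is lowest in the libraries of its own siRNA under R1881, at 53.6 to 58.7 CPM for NFYA and 11.4 to 15.2 CPM for KLF5, while NFYB and NFYC overlap between siNFYA and siKLF5 cells.

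Most differences between the knockdowns were small. Of 12922 genes tested, 494 (3.82%) passed at an adjusted p under 0.05, with 193 (1.49%) higher and 301 (2.33%) lower in siNFYA cells. The median size of a called change was 0.28 on the log2 scale, and 21 called genes differed by at least 2-fold. The median change over all genes was -0.0046. The 3 libraries of each group did not overlap for 1517 genes with siNFYA below (11.7%) and 1257 with siNFYA above (9.73%), called or not. Of the 494 called genes the groups did not overlap for 491, so a lack of overlap adds little to a call. Calls fell to 241 without siKLF5 replicate 1, 296 without siKLF5 replicate 2, 295 without siKLF5 replicate 3, 280 without siNFYA replicate 2 and 295 without siNFYA replicate 3. With DESeq2 they fell to 293, and with limma on TPM values to 88 (pseudocount 1) and 75 (pseudocount 0.1).

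The largest falls in siNFYA cells, among protein-coding genes that reached 5 CPM in the higher of the groups and whose libraries did not overlap, took in secreted, receptor and surface proteins. ORM2 and ORM1, near-identical neighbours on chromosome 9 that encode orosomucoids, acute-phase plasma proteins, may share reads. ORM2 (chr9:114329869-114333252) had 7.48, 7.93 and 7.07 CPM in siNFYA cells, against 16.6, 17.6 and 20.1 CPM in siKLF5 cells (log2 change -1.26, SE 0.18, adjusted p = 0.000114), with siControl cells between at 14.7, 10.5 and 11.3 CPM. ORM1 (chr9:114323056-114326475) had 14.0, 13.3 and 11.8 CPM in siNFYA cells, against 22.9, 24.9 and 27.6 CPM in siKLF5 cells (log2 change -0.94, SE 0.13, adjusted p = 0.000178). As the choice of genes required, no siNFYA library reached the lowest siKLF5 library for either gene. Both genes lay under 0.5 CPM in the vehicle libraries.

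Cell surface genes were among the falls. ADRA2A, the alpha-2A adrenergic receptor (chr10:111077163-111080907), had 9.78, 7.57 and 10.1 CPM in siNFYA cells, against 20.0, 17.1 and 20.4 CPM in siKLF5 cells (log2 change -1.07, SE 0.14, adjusted p = 5.69e-05), and siControl cells lay between at 15.3, 16.5 and 16.1 CPM. GPC6, a glypican that carries heparan sulfate (chr13:93226842-94407401), had 3.45, 2.70 and 2.36 CPM in siNFYA cells, against 5.41, 5.81 and 7.72 CPM in siKLF5 cells (log2 change -1.13, SE 0.23, adjusted p = 0.00486). PCDH11Y, a Y-linked protocadherin with a close X-linked copy (chrY:5000226-5742224), had 5.37, 10.1 and 7.07 CPM in siNFYA cells, against 16.2, 16.7 and 15.4 CPM in siKLF5 cells (log2 change -1.09, SE 0.17, adjusted p = 0.00031). For each of these 3 genes the siNFYA and siKLF5 libraries did not overlap, as the choice of genes required. The Y-linked and X-linked protocadherins may split reads. PCDHGA5, a protocadherin whose last exons are shared with the rest of its cluster (chr5:141364232-141512979), averaged 3.88 ± 1.17 CPM in siNFYA cells and 8.92 ± 1.65 CPM in siKLF5 cells (SD, n = 3 each) (log2 change -1.22, SE 0.29, adjusted p = 0.014). It stood apart from the other falls: against siControl its log2 changes were -0.03 for siNFYA and 1.18 for siKLF5, and its call was lost without siKLF5 replicate 2 or siNFYA replicate 2. PTPRR, a receptor-type phosphatase of MAP kinases, averaged 3.64 ± 1.16 CPM in siNFYA cells and 7.03 ± 0.402 CPM in siKLF5 cells (SD, n = 3 each) (adjusted p = 0.0285), and it lost its call when any siKLF5 library, or siNFYA replicate 2 or 3, was left out.

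CAMK2N1, an inhibitor of the calcium and calmodulin-dependent kinase CaMKII (chr1:20482391-20486220), had 12.3, 13.3 and 10.3 CPM in siNFYA cells, against 23.3, 21.2 and 22.9 CPM in siKLF5 cells (log2 change -0.89, SE 0.13, adjusted p = 7.67e-05). MDK, the heparin-binding growth factor midkine (chr11:46380756-46383837), had 7.10, 7.75 and 6.22 CPM in siNFYA cells, against 14.6, 12.2 and 12.2 CPM in siKLF5 cells (log2 change -0.88, SE 0.16, adjusted p = 0.00208). In both genes the siKLF5 libraries lay with the siControl libraries, at 20.4, 23.6 and 23.9 CPM for CAMK2N1 and 13.0, 12.5 and 12.1 CPM for MDK. CCDC154, a coiled-coil gene, averaged 3.74 ± 0.724 CPM in siNFYA cells and 7.54 ± 0.259 CPM in siKLF5 cells (SD, n = 3 each) (adjusted p = 0.0109) and lost its call without siNFYA replicate 2. Against siControl R1881, whose libraries both contrasts share, log2 changes were -0.91 for siNFYA and -0.01 for siKLF5 in CAMK2N1, -0.83 for siNFYA and 0.05 for siKLF5 in MDK, -1.04 for siNFYA and 0.09 for siKLF5 in GPC6 and -1.08 for siNFYA and 0.01 for siKLF5 in PCDH11Y.

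The largest rises in siNFYA cells included KLF5 itself. SEC62, a part of the machinery that carries proteins across the endoplasmic reticulum membrane (chr3:169966635-169998373), had the smallest adjusted p among these 20 genes. It had 205, 219.6 and 216 CPM in siNFYA cells, against 137, 118 and 123 CPM in siKLF5 cells (log2 change 0.76, SE 0.052, adjusted p = 1.03e-09). The siControl cells had 214, 203 and 206 CPM. Against siControl the log2 changes were 0.04 for siNFYA and -0.72 for siKLF5, so siKLF5 cells lay farther from siControl than siNFYA cells did. ALOX12B, a lipoxygenase known from the skin barrier (chr17:8072636-8087716), had 13.2, 10.4 and 11.4 CPM in siNFYA cells, against 4.81, 4.31 and 4.68 CPM in siKLF5 cells (log2 change 1.34, SE 0.28, adjusted p = 0.00505). RUNX1, a transcription factor of blood cell development (chr21:34787801-36004667), had 13.4, 15.0 and 15.2 CPM in siNFYA cells, against 8.62, 9.75 and 6.78 CPM in siKLF5 cells (log2 change 0.78, SE 0.18, adjusted p = 0.0144). In ALOX12B and RUNX1 the siNFYA cells lay farther from siControl cells, which had 3.96, 2.62 and 3.89 CPM of ALOX12B and 7.17, 5.80 and 7.39 CPM of RUNX1.

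C1QTNF3, a secreted protein of the C1q and TNF-related family (chr5:34019448-34043832), averaged 6.79 ± 0.64 CPM in siNFYA cells and 3.20 ± 0.31 CPM in siKLF5 cells (SD, n = 3 each) (log2 change 1.07, SE 0.24, adjusted p = 0.00904). S100P, a calcium-binding protein (chr4:6693069-6697170), averaged 5.82 ± 2.00 CPM in siNFYA cells and 2.69 ± 0.393 CPM in siKLF5 cells (SD, n = 3 each) (log2 change 1.13, SE 0.32, adjusted p = 0.0461). The remaining rises were ARHGEF38, a guanine nucleotide exchange factor, TRDMT1, a tRNA methyltransferase, RAD52, of homologous recombination, and PARD3, of cell polarity, with log2 changes of 0.89, 0.78, 0.76 and 0.74. S100P, ARHGEF38, TRDMT1, RUNX1, RAD52 and PARD3 each lost the call when 4 or 5 of the 6 libraries were left out in turn. ALOX12B, C1QTNF3, KLF5 and SEC62 kept it whichever of the 6 was left out, as did ORM2, GPC6, PCDH11Y, ADRA2A, ORM1, CAMK2N1 and MDK among the falls.

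**Figure D2:**
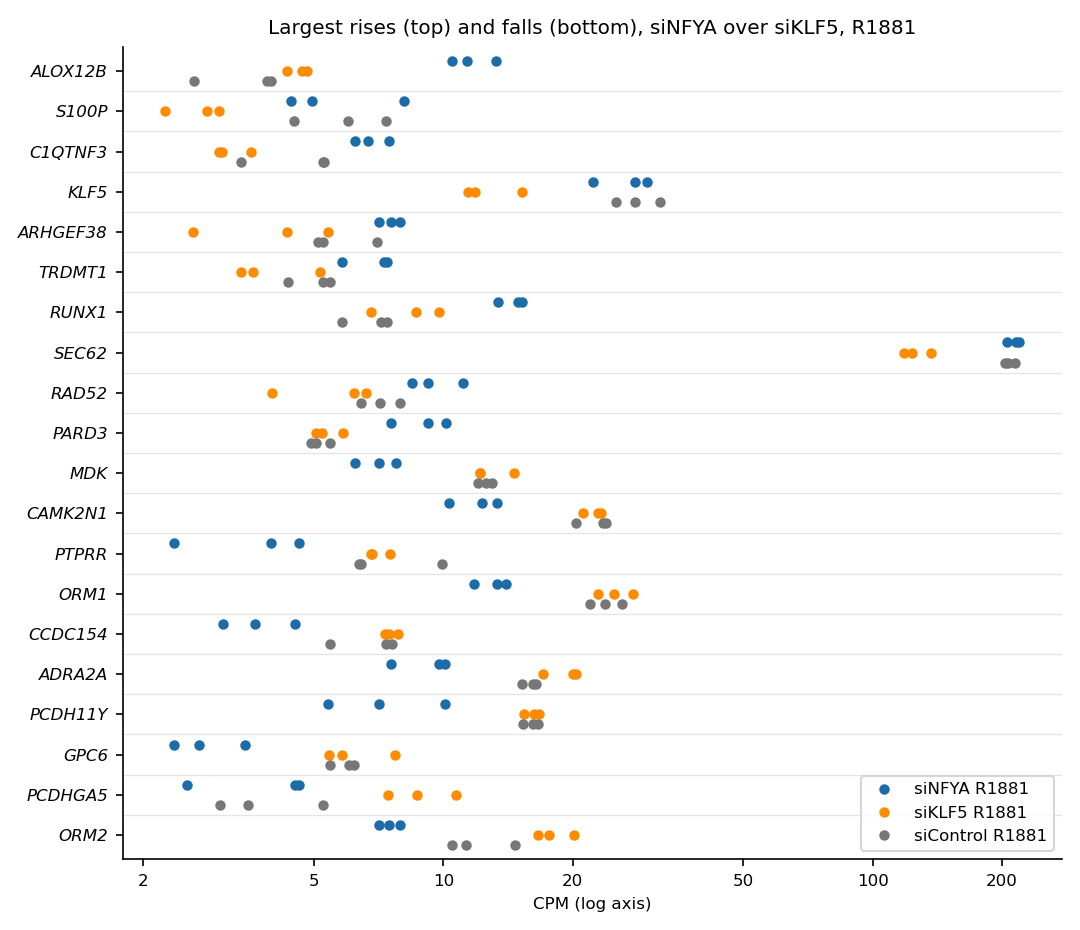
CPM (log axis) of the 10 largest rises and 10 largest falls in each R1881 library, with siNFYA, siKLF5 and siControl libraries from top to bottom within each row. The siNFYA points lie right of the siKLF5 points for the rises and left of them for the falls without overlap, as the choice of genes required, and the siControl points lie with siKLF5 for CAMK2N1 and MDK and with siNFYA for KLF5 and SEC62.

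Promoter sequences were read for the 3 largest falls and 3 largest rises that had an entry, as NF-Y and KLF factors are defined by the boxes they bind. The windows run from 250 bases before to 50 after a transcription start (RefSeq, GRCh38.p14), 5′ to 3′ on the strand of the gene, with CCAAT or its reverse complement ATTGG in capitals.
PCDHGA5 (chr5:141363912-141364211, + strand): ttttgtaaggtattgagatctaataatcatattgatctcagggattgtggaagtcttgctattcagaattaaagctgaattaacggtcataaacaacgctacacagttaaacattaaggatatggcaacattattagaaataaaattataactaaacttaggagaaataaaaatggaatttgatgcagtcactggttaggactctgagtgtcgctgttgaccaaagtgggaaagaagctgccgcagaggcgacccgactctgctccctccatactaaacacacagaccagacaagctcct
GPC6 (chr13:93226557-93226856, + strand): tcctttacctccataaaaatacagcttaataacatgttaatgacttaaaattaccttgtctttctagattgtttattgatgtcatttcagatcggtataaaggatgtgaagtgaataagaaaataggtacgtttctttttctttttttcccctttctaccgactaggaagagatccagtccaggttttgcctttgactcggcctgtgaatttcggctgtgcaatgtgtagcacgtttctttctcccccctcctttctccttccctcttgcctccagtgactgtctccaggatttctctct
PCDH11Y (chrY:5000046-5000345, + strand): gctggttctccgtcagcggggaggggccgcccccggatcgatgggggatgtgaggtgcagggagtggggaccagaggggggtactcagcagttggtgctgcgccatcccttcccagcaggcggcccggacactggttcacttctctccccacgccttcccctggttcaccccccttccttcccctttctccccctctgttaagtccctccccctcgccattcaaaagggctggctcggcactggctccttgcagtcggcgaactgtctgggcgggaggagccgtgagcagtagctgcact
ALOX12B (chr17:8087667-8087966, - strand): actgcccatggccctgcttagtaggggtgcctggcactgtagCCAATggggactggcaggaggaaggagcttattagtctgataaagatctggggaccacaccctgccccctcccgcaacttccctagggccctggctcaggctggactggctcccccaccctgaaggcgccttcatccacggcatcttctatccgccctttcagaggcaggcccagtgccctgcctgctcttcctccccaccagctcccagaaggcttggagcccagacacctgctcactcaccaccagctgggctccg
S100P (chr4:6693628-6693927, + strand): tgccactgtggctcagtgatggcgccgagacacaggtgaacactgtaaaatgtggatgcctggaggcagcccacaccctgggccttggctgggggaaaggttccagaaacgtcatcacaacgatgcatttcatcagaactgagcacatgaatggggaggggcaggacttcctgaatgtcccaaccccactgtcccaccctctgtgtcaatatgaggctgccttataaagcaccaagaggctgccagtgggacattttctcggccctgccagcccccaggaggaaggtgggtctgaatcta
C1QTNF3 (chr5:34043164-34043463, - strand): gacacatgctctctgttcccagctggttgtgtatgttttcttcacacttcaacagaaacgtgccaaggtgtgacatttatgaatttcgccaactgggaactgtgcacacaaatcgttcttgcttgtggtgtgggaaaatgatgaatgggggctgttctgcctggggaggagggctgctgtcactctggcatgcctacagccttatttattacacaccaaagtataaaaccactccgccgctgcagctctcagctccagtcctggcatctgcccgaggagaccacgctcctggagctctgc
CCAAT was found in 1 of these 6 windows, that of ALOX12B, with its first base at -208 (counted on the gene's strand, with the last base before the start as -1). GGGCGG, the core of a GC box (or CCGCCC), was found at -224 and 19 for PCDH11Y and at -57 for ALOX12B. CCCACCC, which stands for the CACCC-type box (searched on both strands), was found at -95 for ALOX12B and at -58 for S100P. A match is a description of the letters only, and a window without one says nothing of binding elsewhere.

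Genes of cell division were mostly lower in siNFYA than in siKLF5 cells. Of 42 tested genes of G2/M and mitosis, 7 passed lower and none higher, which is 16.7% of the list against 2.33% of all genes, and 41 had a negative log2 change against a share of 51.2% among all genes. The median was -0.18, against -0.0046 over all genes. In bulk RNA fewer dividing cells and less RNA per cell cannot be told apart. Among 43 genes of DNA replication and S phase, 4 passed lower and none higher, 34 were negative, and the median was -0.15. BUB1B, a kinase of the spindle checkpoint (chr15:40161023-40221136), had 15.7, 17.8 and 17.8 CPM in siNFYA cells, against 29.7, 28.7 and 26.4 CPM in siKLF5 cells (log2 change -0.73, SE 0.11, adjusted p = 0.000128). No overlap was seen, and siControl cells lay between at 23.6, 20.0 and 22.4 CPM.

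RRM2, the small subunit of ribonucleotide reductase, which makes deoxynucleotides (chr2:10120698-10131419), had 36.1, 38.0 and 40.1 CPM in siNFYA cells, against 56.7, 53.6 and 65.5 CPM in siKLF5 cells (log2 change -0.62, SE 0.092, adjusted p = 0.000171). The lowest siKLF5 library lay above the highest siNFYA library. KIF4A, a chromosome-bound kinesin (chrX:70290090-70420832), had 23.2, 20.4 and 17.4 CPM in siNFYA cells, against 29.7, 28.1 and 31.3 CPM in siKLF5 cells (log2 change -0.54, SE 0.11, adjusted p = 0.00425), and TPX2, a spindle assembly factor (chr20:31739271-31801805), had 50.6, 46.7 and 47.2 CPM in siNFYA cells, against 58.9, 59.4 and 62.2 CPM in siKLF5 cells (log2 change -0.32, SE 0.07, adjusted p = 0.00833). The other mitotic genes that passed were KIF11, the spindle motor Eg5 (log2 change -0.59), MKI67, the proliferation antigen Ki-67 (-0.54), KIF2C, a kinesin that takes microtubules apart (-0.47), and DLGAP5, a spindle protein (-0.38). TYMS, thymidylate synthase, had a log2 change of -0.40, MCM4, a subunit of the replicative helicase, -0.39, and FEN1, the flap endonuclease, -0.31. TYMS lost its call without siKLF5 replicate 2 or siNFYA replicate 3, and MCM4 without siKLF5 replicate 1 or siNFYA replicate 3. Of the mitotic genes 4 were called without siKLF5 replicate 1 or siNFYA replicate 3, and of the replication genes 2 without siKLF5 replicate 1 or 2 and 1 without siNFYA replicate 3. On TPM values limma called no mitotic gene and 1 replication gene, and 39 of 42 and 34 of 43 genes were negative.

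The mean level of each list was also set beside the siControl mean of the same treatment, library by library, as log2(CPM + 0.5). For the mitotic genes the values were -0.13, -0.098 and -0.10 in siNFYA cells with R1881, 0.13, 0.13 and 0.12 in siKLF5 cells with R1881 and 0.028, -0.024 and -0.0041 in siControl cells with R1881. The siControl libraries thus lay between the knockdowns, and the 3 groups did not overlap. With vehicle the values were 0.097, 0.078 and 0.12 in siNFYA cells, -0.037 and 0.012 in siKLF5 cells and 0.064, -0.016 and -0.048 in siControl cells, so the siNFYA libraries were the highest and the siKLF5 libraries lay within the siControl range. The median log2 change against siControl R1881 was -0.11 for siNFYA and 0.10 for siKLF5 over the mitotic genes, and -0.14 for siNFYA and 0.03 for siKLF5 over the replication genes.

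**Figure D3:**
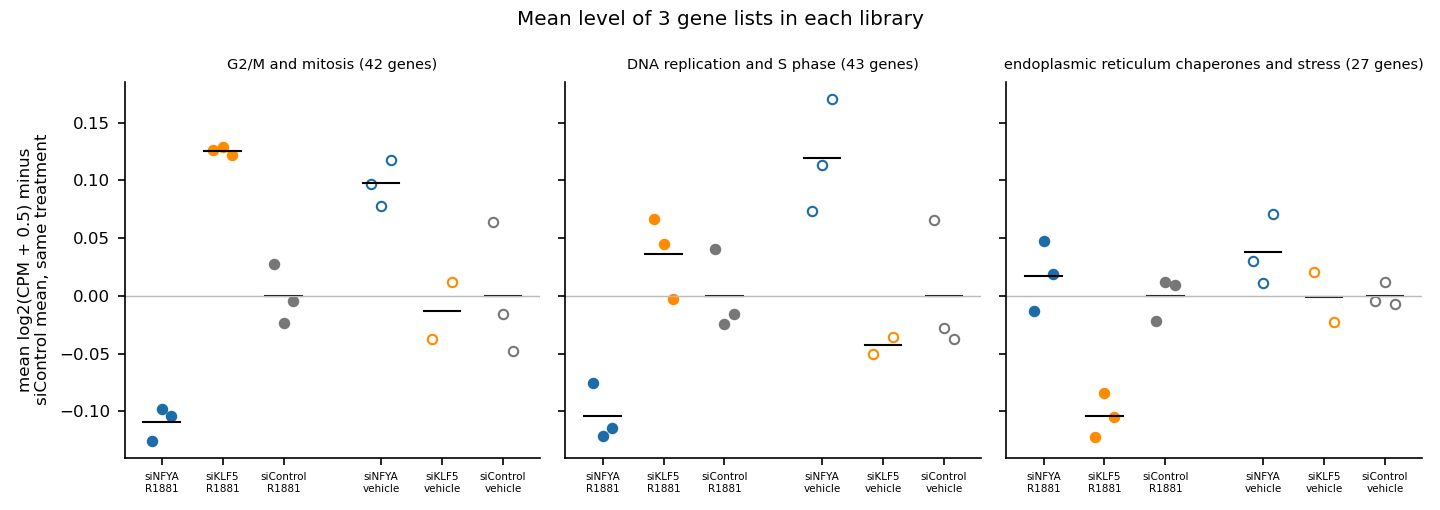
Mean log2(CPM + 0.5) of the genes of 3 lists in each library, minus the siControl mean of the same treatment, with siNFYA, siKLF5 and siControl cells from left to right under R1881 (filled) and vehicle (open) and bars at group means. Under R1881 the mitotic list has its siNFYA libraries at -0.13 to -0.098 and its siKLF5 libraries at 0.12 to 0.13, and the endoplasmic reticulum list has siKLF5 below siControl.

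Genes in the list of endoplasmic reticulum chaperones and stress were mostly higher in siNFYA than in siKLF5 cells. This list, called the chaperone list below, also holds genes that are not chaperones, such as XBP1, ATF6 and DERL1. Of 27 genes, 6 passed higher and none lower, which is 22.2% against 1.49% of all genes, and 25 had a positive change. The median was 0.13, so changes were small. HSPA5, the main chaperone BiP (chr9:125234853-125241330), had 1711, 1841 and 1761 CPM in siNFYA cells, against 1528, 1538 and 1536 CPM in siKLF5 cells (log2 change 0.21, SE 0.033, adjusted p = 0.000417), with 1741, 1698 and 1692 CPM in siControl cells. The siKLF5 libraries were the lowest and siNFYA and siControl overlapped. The other members that passed were the calcium-binding chaperone CALR (0.14), the disulfide isomerases PDIA3 (0.15) and PDIA6 (0.17), the transcription factor XBP1 of the unfolded protein response (0.23) and CRELD2 (0.23). The median against siControl R1881 was 0.0050 for siNFYA and -0.11 for siKLF5. For siNFYA edgeR and DESeq2 called no member, where edgeR called 5.45% of all genes (2.43% higher and 3.02% lower). At an unadjusted p under 0.05 there were 4 of 27 members for siNFYA, against 18.4% of all genes. For siKLF5 edgeR called 5 lower, where 1.26% of all genes were called (0.673% higher and 0.588% lower). Calls between the knockdowns fell to 1 without siNFYA replicate 2, 2 without siKLF5 replicate 3 and 3 without siKLF5 replicate 1, and ranged from 1 to 8 over the settings, with the median from 0.09 to 0.16.

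CCAAT boxes were frequent in front of the genes of these lists. A CCAAT was present in 26 of 35 mitotic promoters (74.3%), 18 of 35 replication promoters (51.4%) and 20 of 24 promoters of the chaperone list (83.3%). The share was 37.4% of the 10105 tested genes with an entry and 34.6% of all 35116 promoter windows of that length in the RefSeq table. The share was thus above that of tested genes in each list, and the lists differed in the sign of their change between siNFYA and siKLF5 cells. Against siControl R1881 the chaperone list had a median of 0.0050 for siNFYA and -0.11 for siKLF5. The part of the box in these changes was not tested. GGGCGG was present in 80.0% of mitotic, 71.4% of replication and 66.7% of chaperone promoters. The share was 70.6% of tested genes with an entry and 45.0% of all windows. CCCACCC was present in 11.4% of mitotic, 17.1% of replication and 25.0% of chaperone promoters. Here the share was 21.4% of tested genes with an entry and 19.6% of all windows. Among genes called lower in siNFYA cells 36.6% held a CCAAT (243 of 301 had an entry), and among those called higher 47.8% (157 of 193 had an entry), beside the 37.4% of tested genes. The table had an entry for 78.2% of the tested genes, so these shares describe the genes with an entry, and a statement over all tested genes would be void. The windows of KIF11, RRM2 and HSPA5 are shown, chosen after their values were seen, as a mitotic motor, a replication gene and a chaperone with 5 boxes.
KIF11 (chr10:92592880-92593179, + strand): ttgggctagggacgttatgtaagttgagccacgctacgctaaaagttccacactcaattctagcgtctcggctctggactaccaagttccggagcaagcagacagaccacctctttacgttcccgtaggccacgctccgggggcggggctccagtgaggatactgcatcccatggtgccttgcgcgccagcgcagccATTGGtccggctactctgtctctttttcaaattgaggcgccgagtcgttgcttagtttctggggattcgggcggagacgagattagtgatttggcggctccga
RRM2 (chr2:10122318-10122617, + strand): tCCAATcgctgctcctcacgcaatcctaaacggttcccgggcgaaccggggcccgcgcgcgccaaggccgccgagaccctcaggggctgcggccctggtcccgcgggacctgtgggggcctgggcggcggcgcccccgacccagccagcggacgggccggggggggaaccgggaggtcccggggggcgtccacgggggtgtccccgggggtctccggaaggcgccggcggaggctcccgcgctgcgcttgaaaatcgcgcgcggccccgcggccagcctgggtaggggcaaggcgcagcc
HSPA5 (chr9:125241294-125241593, - strand): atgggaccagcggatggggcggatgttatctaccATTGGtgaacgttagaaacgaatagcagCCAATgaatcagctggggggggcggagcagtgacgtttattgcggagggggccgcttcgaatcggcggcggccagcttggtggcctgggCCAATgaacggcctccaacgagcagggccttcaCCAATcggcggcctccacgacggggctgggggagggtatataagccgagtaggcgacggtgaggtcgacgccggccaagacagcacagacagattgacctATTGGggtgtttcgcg
The box lay at -53 in KIF11 and at -249 in RRM2. In HSPA5 the boxes were at -216, -188, -99, -66 and 35.

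The vehicle libraries, which share no sample with the R1881 libraries, gave a different picture for the cell division lists. In siNFYA against siKLF5 cells with vehicle, 774 genes passed (5.99%), and 4 mitotic genes were called higher and none lower, against 2.35% of all genes called higher and 3.64% called lower, with a median of 0.12. For replication genes 7 were called higher and none lower, with a median of 0.17. With 1 vehicle library left out 1 or 2 mitotic genes were called, and of replication genes 1 without siKLF5 replicate 3, 3 without siNFYA replicate 2 and 4 without siNFYA replicate 3. The change of the contrast between R1881 and vehicle was itself tested, and 86 genes passed (0.666%), 46 with a more positive and 40 with a more negative difference under R1881. Of the mitotic genes 6 passed, all negative (CDK1, BUB1B, KIF11, KIF2C, KIF4A and TPX2), and of the replication genes 5 passed, all negative (MCM4, PCNA, RRM2, TYMS and FEN1), against 0.31% of all genes with a negative difference called. In the chaperone list the difference passed for HSPA5 and CALR, both positive, against 0.356% of all genes with a positive one. The vehicle contrast rests on 2 siKLF5 libraries. In siNFYA vehicle replicate 3 the gene AC010970.1 took 2.85% of counts, against 0.0902% to 0.424% in the other libraries. The counts of this library differed from those of its 2 fellow replicates by a chi-square per degree of freedom of 9.35 and 12.4. The other replicate pairs had 1.33 to 3.33. The chi-square included AC010970.1 and was not computed without that gene, so it is not separate from that share. Without siNFYA vehicle replicate 3 the vehicle contrast called 771 genes and the difference between treatments 91. The vehicle medians were then 0.09 for mitotic and 0.14 for replication genes. The vehicle contrast called 225 genes without siKLF5 vehicle replicate 3, 472 without siNFYA vehicle replicate 1 and 396 without siNFYA vehicle replicate 2. The difference between treatments called 39 genes without siKLF5 vehicle replicate 3, and 54, 49 and 47 without R1881 libraries siKLF5 replicate 2, siKLF5 replicate 3 and siNFYA replicate 3.

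**Figure D4:**
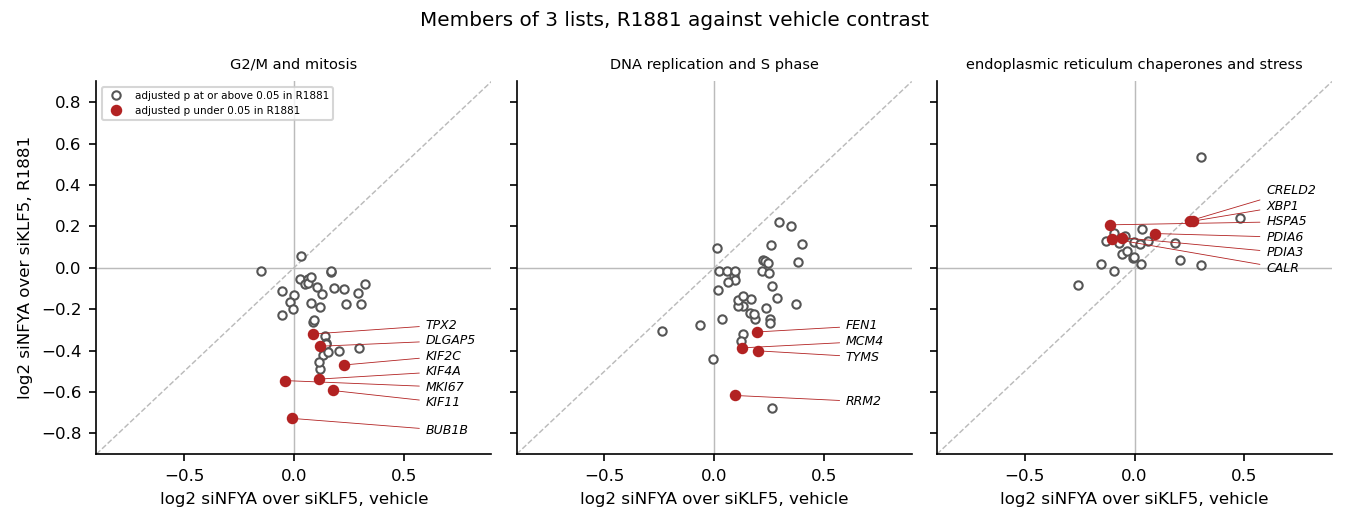
Log2 change of siNFYA over siKLF5 cells under R1881 (vertical axis) against that under vehicle (horizontal axis) for the members of 3 lists, with genes called under R1881 as filled, named points and a dashed line of equal change. The mitotic genes lie below 0 on the vertical axis in 41 of 42 cases and mostly right of 0 on the horizontal axis. The genes of the endoplasmic reticulum list lie above 0 on the vertical axis in 25 of 27.

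Androgen-linked genes moved in both directions. Of 59 genes known as induced by androgen, 9 passed higher and 5 lower in siNFYA cells, against 1.49% and 2.33% of all genes, and the median was 0.03. KLK2, a kallikrein protease of the prostate (chr19:50861568-50880567), had 1077, 1026 and 1056 CPM in siNFYA cells, against 767, 802 and 787 CPM in siKLF5 cells (log2 change 0.42, SE 0.039, adjusted p = 1.06e-07). KLK3, which encodes prostate-specific antigen (chr19:50854915-50860764), had 4181, 4262 and 4129.7 CPM in siNFYA cells, against 3315, 3364 and 3261 CPM in siKLF5 cells (log2 change 0.34, SE 0.047, adjusted p = 6.46e-05). No siNFYA library reached down to a siKLF5 library for either gene, and siControl cells lay between, at 829, 873 and 841 CPM of KLK2 and 3669, 3799 and 3697 CPM of KLK3.

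On the log2 scale KLK2 and KLK3 differed more without androgen, where their CPM were far lower and siKLF5 had 2 libraries. KLK2 had 11.5, 10.1 and 12.1 CPM in siNFYA cells with vehicle, against 3.19 and 3.99 CPM in siKLF5 cells with vehicle, and KLK3 had 83.1, 89.4 and 105 CPM against 33.3 and 35.8 CPM in the same groups. The log2 change of siNFYA over siKLF5 was thus 1.63 for KLK2 and 1.42 for KLK3 with vehicle. The change with R1881 minus that with vehicle was -1.21 for KLK2 (adjusted p = 0.00111) and -1.08 for KLK3 (adjusted p = 1.70e-07). KLK4, a related kallikrein, did not pass under R1881 (log2 change -0.14, adjusted p = 0.0767) and its difference between treatments was -0.59 (adjusted p = 0.00959).

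ODC1, ornithine decarboxylase, the first enzyme of polyamine synthesis (chr2:10439968-10448504), had 4756, 4944 and 4679.8 CPM in siNFYA cells, against 3343, 3585 and 3572 CPM in siKLF5 cells (log2 change 0.45, SE 0.037, adjusted p = 1.29e-08), with 4138, 4307 and 4295 CPM in siControl cells between them. SGK1, a kinase that steroid hormones induce (chr6:134169246-134318112), had 56.0, 59.3 and 55.7 CPM in siNFYA cells, against 40.1, 36.2 and 36.5 CPM in siKLF5 cells (log2 change 0.60, SE 0.083, adjusted p = 6.46e-05). The libraries of the groups did not overlap in either gene. Other androgen-induced genes that were higher were STEAP4, a metalloreductase (0.24), SPDEF, an ETS factor (0.22), KRT18, a keratin (0.18), ACSL3, an acyl-CoA synthetase (0.18), and PLPP1, a lipid phosphatase (0.17). Lower were ORM1, ELOVL7, a fatty acid elongase (-0.33), MYH10, a non-muscle myosin (-0.24), RAB3B (-0.23) and ADAMTS1, a secreted protease (-0.19). MYH10 had a change of 0.026 on TPM values and was not called there.

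Of 22 tested genes known as repressed by androgen, 3 passed lower and 2 higher, against 2.33% and 1.49% of all genes. In this list 14 genes had a negative change, and the median was -0.17. UGT2B11, of the family of enzymes that attach glucuronic acid to steroids (chr4:69199951-69214731), had 196, 209 and 199 CPM in siNFYA cells, against 129, 128 and 127 CPM in siKLF5 cells (log2 change 0.65, SE 0.058, adjusted p = 6.08e-08). UGT2B15, which inactivates androgens (chr4:68646630-68670628), had 23.6, 26.8 and 29.4 CPM in siNFYA cells, against 18.2, 18.2 and 18.2 CPM in siKLF5 cells (log2 change 0.54, SE 0.095, adjusted p = 0.00098). The siNFYA libraries were the highest for both, and siControl cells had 103, 114 and 117 CPM of UGT2B11 and 18.7, 19.3 and 19.1 CPM of UGT2B15. The family is made of similar copies that may share reads. UGT2B11 had more counts with R1881 than with vehicle in each siRNA group here, although it stands in the list of repressed genes. Of the 3 called lower, CAMK2N1 and PCDH11Y are described above.

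**Figure D5:**
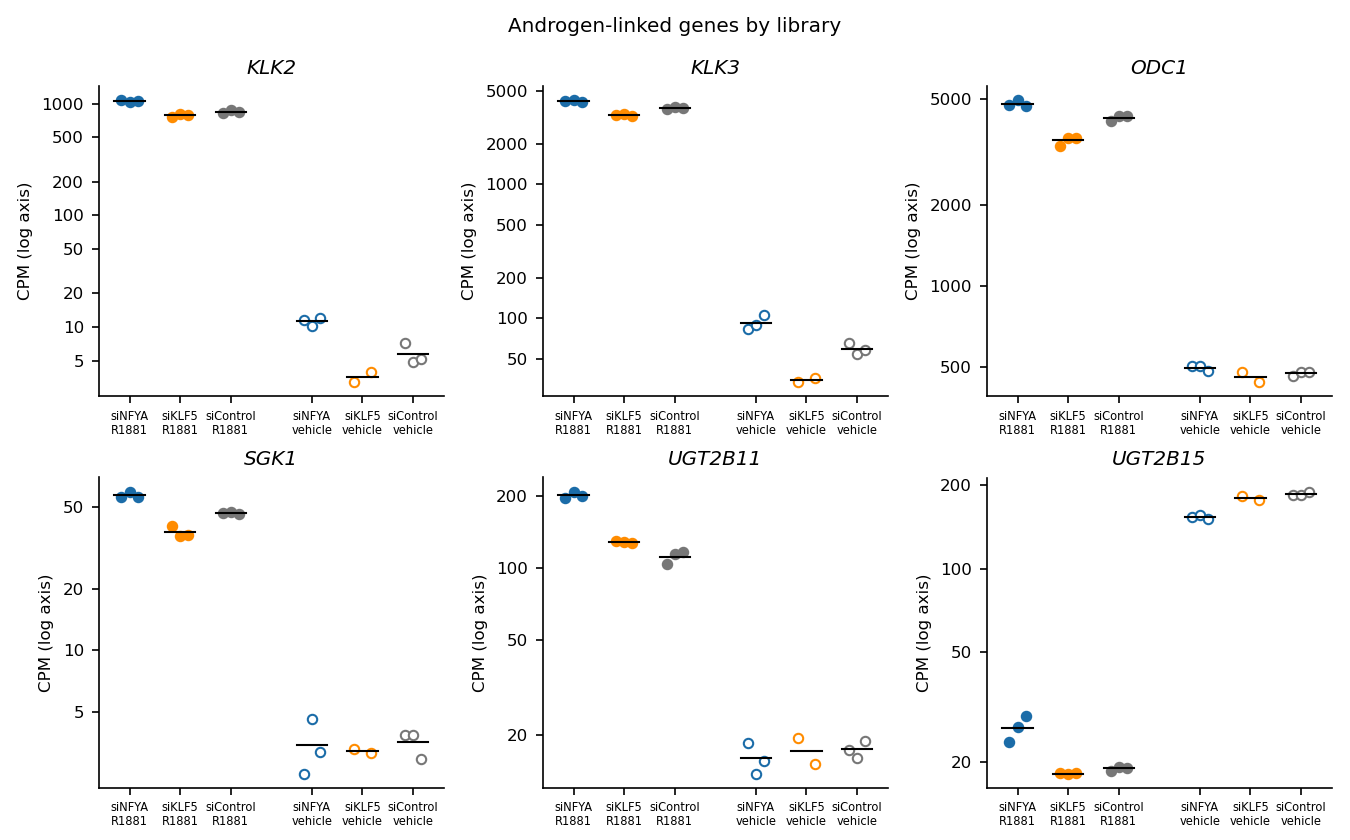
CPM (log axis) of 6 androgen-linked genes in each library, with siNFYA, siKLF5 and siControl cells from left to right under R1881 (filled) and vehicle (open) and bars at group means. The 6 genes shown were all called higher under R1881, with the siNFYA libraries above the siKLF5 libraries. In the same lists 5 androgen-induced and 3 androgen-repressed genes were called lower and are not shown. For UGT2B15 with vehicle the siNFYA libraries, at 152 to 157 CPM, are below the siKLF5 libraries, at 177 to 183 CPM.

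Among the cofactors of nuclear receptors, the corepressor NCOR1 (log2 change -0.22, SE 0.042, adjusted p = 0.00315) and the coactivator NCOA2 (log2 change -0.20, SE 0.057, adjusted p = 0.0488) were lower. NCOR1 averaged 315 ± 8.90 CPM in siNFYA cells and 365 ± 10.4 CPM in siKLF5 cells (SD, n = 3 each). NCOA2 lost its call in 4 of the 6 fits with a library left out and with DESeq2. Of 15 luminal markers 3 passed higher (KLK2, KLK3 and KRT18) and 3 lower, ACPP and STEAP2 (log2 change -0.12) among them. This is 40.0% called, against 3.82% of all genes (1.49% higher and 2.33% lower), and luminal calls ranged from 1 to 7 over the settings. ACPP, prostatic acid phosphatase (chr3:132317367-132368298), had 84.0, 91.5 and 85.1 CPM in siNFYA cells, against 127, 121 and 108 CPM in siKLF5 cells (log2 change -0.45, SE 0.062, adjusted p = 6.52e-05), both below siControl cells at 157, 149.8 and 144 CPM. Against siControl its log2 changes were -0.79 for siNFYA and -0.34 for siKLF5, and both passed.

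Several metabolic lists held called genes, set here beside the 3.82% called among all genes (1.49% higher and 2.33% lower). In polyamine metabolism 5 of 15 genes passed (33.3%): ODC1, SRM, spermidine synthase (0.22), and AMD1, S-adenosylmethionine decarboxylase (0.11), were higher, and AZIN1, the antizyme inhibitor (-0.22), and ARG2, an arginase (-0.30), were lower. ODC1 and AZIN1 kept the call whichever library was left out. In the hexosamine and glycosylation list 3 of 15 passed (20.0%), as GALNT7, which starts O-linked chains (log2 change 0.44, SE 0.052, adjusted p = 8.09e-06), OGT (0.20) and NANS (0.21) were higher and none lower. GALNT7 had 157, 159 and 150.1 CPM in siNFYA cells, against 118, 111 and 114 CPM in siKLF5 cells, with no overlap. OGT, the O-GlcNAc transferase, exceeded siControl in both knockdowns, with log2 changes of 0.57 for siNFYA and 0.37 for siKLF5.

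In fatty acid synthesis and desaturation 5 of 24 genes passed (20.8%, against 3.82% of all genes), as ACSL3, ACSL1 (0.17), the desaturases FADS2 (0.18) and SCD (0.14) were higher and ELOVL7 was lower. In cholesterol synthesis and uptake 4 of 27 passed (14.8%), as FDPS (0.17) and FDFT1 (0.13) were higher and TM7SF2 (-0.21) and SC5D (-0.18) lower, and each of these 4 lost its call in at least 5 fits with a library left out. In glycolysis 3 of 23 passed (13.0%), as HK2 (0.22), ENO1 (0.14) and LDHA (0.14) were higher and none lower. Of 24 fatty acid oxidation genes 1, ACAA1 (-0.19), passed (4.17%). Of 25 tricarboxylic acid cycle genes and 44 nuclear-encoded respiratory chain genes none passed in edgeR or DESeq2. At an unadjusted p under 0.05 there were 4 (16.0%) and 11 (25.0%) of these, against 16.4% of all genes. In the hypoxia list 3 of 21 passed (14.3%), which were HK2 and LDHA, higher, and STC2, lower, and in purine and pyrimidine synthesis 2 of 24 (8.33%), which were RRM2 and TYMS. Of 28 p53 target genes 3 passed (10.7%), as TNFRSF10B, a death receptor (0.19), GDF15 (0.24) and the nuclease AEN (0.33) were higher. The call of TNFRSF10B held whichever library was left out, and those of GDF15 and AEN did not.

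In the other lists 3.82% of all genes is again the share to set the calls beside. EGFR, a growth factor receptor, was the 1 gene of 16 described as KLF5 targets to pass (6.25%; log2 change -0.31, SE 0.065, adjusted p = 0.00674), and it lost the call without siKLF5 replicate 1 or siNFYA replicate 2. Its changes against siControl were -0.32 for siNFYA and -0.01 for siKLF5. STC2, a secreted glycoprotein, was the 1 of 34 ATF4 response genes to pass (2.94%; log2 change -0.22). RPL32 was the 1 of 65 cytosolic ribosomal proteins to pass (1.54%, log2 change 0.15). Of the 65, 60 had a positive and 5 a negative change with a median of 0.06, where 51.2% of all genes were negative. Over the settings 2 to 21 were negative and the median ran from 0.02 to 0.09. HIST1H4H, a histone with near-identical copies, was the 1 of 13 replication-dependent histones to pass (7.69%; log2 change 0.22) and was at -0.020 on TPM values. FN1, fibronectin, stood in the stromal list and had 163, 147 and 163 CPM in siNFYA cells, against 244, 188 and 216 CPM in siKLF5 cells (log2 change -0.46, SE 0.076, adjusted p = 0.000509), while COL1A2, COL3A1, DCN and LUM of that list lay below 1 CPM in all 6 libraries. In the epithelial list 3 of 23 passed (13.0%), as CLDN8 (0.37) and KRT18 were higher and DSP, desmoplakin, was lower (-0.18), and DST, 1 of 3 tested basal markers, was lower (-0.66). In edgeR no gene passed in the lists of heat shock proteins, interferon response, mitochondrial ribosomal proteins, proteasome subunits, splicing regulators, RNA interference machinery, immediate early genes, mitochondrially encoded mRNAs, or lysosome and autophagy. With the tricarboxylic acid cycle, the respiratory chain and the neuroendocrine and blood markers these lists held 285 tested genes, of which 43 had an unadjusted p under 0.05 (15.1%, against 16.4% of all genes) and DESeq2 called 1. By list this share was 35.3% for heat shock proteins, 25.0% for the respiratory chain and 22.6% for proteasome subunits. It was 16.0% to 16.7% for the tricarboxylic acid cycle, splicing regulators and immediate early genes, and at most 9.76% in the rest.

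Across all genes the R1881 and vehicle contrasts overlapped in part. Of the 494 genes called with R1881, 139 were called with vehicle in the same direction and 5 in the opposite one, which is 28.1% of the R1881 calls and 18.0% of the vehicle calls for the same direction. Of all genes 3.82% were called with R1881 and 5.99% with vehicle. The sign was shared by 79.8% of the R1881 calls, against 60.8% of all genes. Over all genes the log2 changes of the contrasts had a Pearson correlation of 0.11. NFYA, KLF5 and SEC62 had like values in both treatments, with vehicle log2 changes of -0.66, 1.07 and 0.59, although KLF5 with vehicle did not pass (adjusted p = 0.078). PCDH11Y had 90.8, 97.7 and 100.2 CPM in siNFYA cells with vehicle, against 179 and 205 CPM in siKLF5 cells with vehicle. Without siKLF5 vehicle replicate 3 the genes called in both in the same direction were 71.

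The most negative differences between treatments were those of KCNS3, a potassium channel subunit, KLK2, KLK3 and ADRA2A. KCNS3 averaged 1.28 CPM in siNFYA cells against 3.17 CPM in siKLF5 cells with R1881 and 10.6 CPM in siNFYA cells against 8.94 CPM in siKLF5 cells with vehicle, a difference of -1.52 (adjusted p = 0.042). ADRA2A had 13.6, 16.8 and 14.1 CPM in siNFYA cells with vehicle, against 17.2 and 13.3 CPM in siKLF5 cells with vehicle, so its libraries overlapped there. The most positive were MYNN, a zinc-finger gene (1.03), ST6GAL1, a sialyltransferase (0.95), GALNT18, a glycosyltransferase (0.82), and UGT2B11 (0.76). MYNN (chr3:169772831-169789716) averaged 29.7 ± 1.12 CPM in siNFYA cells and 26.8 ± 0.794 CPM in siKLF5 cells (SD, n = 3 each) under R1881, and had 52.3, 55.3 and 50.5 CPM in siNFYA cells with vehicle, against 97.9 and 96.5 CPM in siKLF5 cells with vehicle. It did not pass under R1881 and was lower in siNFYA cells with vehicle (log2 change -0.88). ST6GAL1 had 29.2, 32.1 and 31.3 CPM in siNFYA cells, against 19.0, 21.6 and 18.7 CPM in siKLF5 cells (log2 change 0.64, SE 0.11, adjusted p = 0.0014), with no overlap.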

How the data were processed

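The data are RNA sequencing tables of LNCaP cells, with 1 row per gene. RNA was purified with a column kit and made into directional libraries, per the labels' protocols. Tools named in the submitters' processing notes are kallisto, Trimmomatic, FastQC and DESeq2, with GRCh38 as the build. Tool versions: not given in the sources used here. Values are estimated counts per gene as deposited by the authors, and a second set of tables deposited by the authors adds TPM values (transcripts per 1000000), beside a number without a name that was left unused. GENCODE v29 held 34846 of the 34912 genes in the tables.

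The control with siNFYA and control with siKLF5 tables, whose control columns are identical, were joined by gene identifier. Estimated counts were rounded, scaled by TMM, filtered with filterByExpr (12922 genes left) and fitted over all 17 libraries, 1 coefficient per group, with the quasi-likelihood test of edgeR 4.0.16 in R 4.3.3. Adjustment followed Benjamini and Hochberg, with calls at an adjusted p under 0.05. On simulated counts for the R1881 contrast of siNFYA with siKLF5 the test recovered 70% of log2 changes of 0.5 and 89% of changes of 1, with 8 false calls among 12709 genes. The simulated counts followed the model that the test assumes, with the spread fitted to these libraries. They therefore cannot show errors that arise where the real counts depart from that model. Libraries held 4416653 to 6872421 estimated counts, so that 3 counts stand for 0.44 to 0.68 CPM, and counting error limits genes near 5 CPM. Counting error alone did not account for the spread within any pair of replicate libraries. TPM values were tested with limma 3.58.1, counts also with DESeq2 1.42.0, and tables and figures were made with Python 3.11.15, pandas 2.3.3 and matplotlib 3.10.9.

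The comparison, the 38 gene lists and the tests were chosen with earlier results of these data known. Named genes are NFYA, NFYB, NFYC and KLF5, the 10 largest rises and 10 largest falls among called protein-coding genes that reach 5 CPM in the higher of the groups and do not overlap, up to 3 called genes per list and direction by adjusted p, and the 4 most positive and 4 most negative differences between treatments. Further called members of a list, and KLK4, were named after their values were seen. Promoters were matched by identifier or symbol for 10105 tested genes, and where RefSeq has several starts the one nearest to the GENCODE gene start was used. Log2 changes are siNFYA over siKLF5 unless another contrast is named. A few genes of the lists are not reported here.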

Additional observations from a re-analysis of the deposited data

Results flagged for a closer look

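For 22 of the genes chosen for naming, the difference between siNFYA and siKLF5 cells was itself different with R1881 and with vehicle, in edgeR's test of that difference at an adjusted p under 0.05. Among them KCNS3, KLK2, KLK3, ADRA2A, MYNN, ST6GAL1, GALNT18 and UGT2B11 were chosen for naming by this same test. Their place among the 22 was thus fixed by the choice. Over all genes tested 86 passed (0.666%), and the 22 are not a share to set beside that. Values are the log2 change of siNFYA over siKLF5 with R1881 minus the same with vehicle. Genes of cell division had negative values: BUB1B -0.72, RRM2 -0.71, KIF4A -0.65, TYMS -0.60, MCM4 -0.51 and TPX2 -0.41. The kallikreins KLK2 (-1.21) and KLK3 (-1.08) were negative with the larger change under vehicle, and KCNS3 (-1.52), ADRA2A (-1.03) and CAMK2N1 (-0.65) were negative with the larger change under R1881. Positive values were found for the glycosylation genes ST6GAL1 (0.95), GALNT18 (0.82) and GALNT7 (0.41), for the glucuronosyltransferases UGT2B11 (0.76) and UGT2B15 (0.76), for MYNN (1.03), for the lipid genes FADS2 (0.39) and ACSL3 (0.31), and for ODC1 (0.33), HSPA5 (0.32) and the metalloreductase STEAP2 (0.21). Each of these values rests on 2 siKLF5 vehicle libraries.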

How the results depend on the processing

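No paired analysis was possible because no number in the labels occurs in more than 1 library. Of 76 named genes called with R1881, 34 kept the call whichever of the 6 libraries was left out, and none changed sign. DESeq2 lost 10 of the 58 with an adjusted p (KLF5 had none), and RLE scaling lost 0. On TPM values 58 (pseudocount 1) and 60 (pseudocount 0.1) lost the call, and HIST1H4H (-0.020 in both) and MYH10 (0.026 in both) changed sign. KLF5 was 0.61 and 0.67 there. NFYB, which was not called, ranged from -0.070 and changed sign to 0.018 without siKLF5 replicate 1 and 0.034 without siNFYA replicate 1. NFYA ranged from -0.64 to -0.56 and KLF5 from 0.98 to 1.19 with a library left out. Counts are given as higher and lower, the cause of the moves was not tested, and fewer samples are in the fits with a library left out. For siNFYA against siKLF5 with R1881 (193 and 301) they were 111 and 182 with DESeq2, 28 and 60 on log2(TPM + 1), 24 and 51 on log2(TPM + 0.1), and 83 to 170 and 158 to 228 with a library left out. For the vehicle contrast (304 and 470) they were 126 higher with DESeq2, 10 and 52 on log2(TPM + 1), 9 and 53 on log2(TPM + 0.1), 70 and 201 with the compared groups alone, and 50 to 487 and 175 to 516 with a library left out. For the difference between treatments (46 and 40) they were 22 lower with DESeq2, 110 and 114 with no filter, 10 and 3 on either TPM scale, 28 and 20 with the compared groups alone, and 19 to 64 and 17 to 69 with a library left out. For siNFYA against siControl with R1881 (314 and 390) they were 177 and 198 with DESeq2, 104 and 113 on log2(TPM + 1), 109 and 118 on log2(TPM + 0.1), and 173 to 245 and 197 to 335 with a library left out. For siKLF5 against siControl with R1881 (87 and 76) they were 39 higher with DESeq2, 193 and 175 with no filter, 27 and 16 on log2(TPM + 1), 27 and 19 on log2(TPM + 0.1), 177 and 137 with the compared groups alone, and 31 to 60 and 28 to 45 with a library left out. Leaving out siKLF5 vehicle replicate 3 was chosen after seeing the data for the overlap of both contrasts.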
